A study of Mus musculus with 40 samples.

Results

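Protein kinases attach phosphate to other proteins and protein phosphatases remove it, and the balance between both sets the activity of much of the cell's signalling. Kinases often act in chains, as in the MAP kinase cascade, where each kinase switches on the next. Many phosphatases instead gain their target from a separate regulatory subunit, as protein phosphatase 1 does. Dual-specificity phosphatases (the Dusp genes) remove phosphate from serine, threonine and tyrosine, and several of them switch MAP kinases off. In fat, muscle and liver these enzymes carry signals from insulin, energy shortage, calcium and cytokines.

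The genes described here were picked by symbol, from names that start with Map2k, Map3k, Map4k or Mapk and a digit, Prk, Camk, Csnk, Stk, Rps6k, Dyrk, Ptpn, Ptpr, Ppp1 to Ppp6 or Dusp. Dusp1 was left out. The rule found 56 genes on 58 spots among 3284 genes named by a single symbol. Ppp1r12a and Prkrip1 had 2 spots each, and the brighter was used. By what the proteins do, the genes were sorted into 25 kinases, 3 regulatory subunits of kinases, 14 phosphatases, 11 regulatory subunits of phosphatases and 3 binding proteins named after a kinase (Mapk1ip1, Mapk1ip1l and Prkrip1). A symbol rule thus takes in a few proteins that are not enzymes.

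The 40 samples were mouse RNAs, each on its own nylon filter with 5760 spots. The proliferating lines grew at low density in DMEM with 10% FCS: preadipocyte lines (3T3-L1 with 2 samples, 3T3-F442A, Ob1774 and Hgfu with 1 each), the mesenchymal line C3H-10T1/2 (3), proliferating C2C12 myoblasts (3) and the macrophage lines Raw 264 (3) and J774 (2). The source name of the proliferating C2C12 samples calls the line preadipocyte; they were grouped by title, and the source name of the differentiated samples calls the line a myoblast line. 3T3-F442A adipocytes (3) were kept for 7 days after confluence with rosiglitazone, a drug that activates PPAR-gamma. C2C12 myotubes (2) were kept for 7 days after confluence in 4% HS. The primary samples were collagenase-isolated adipocytes of inguinal white fat (3, called fat adipocytes here), the adherent stroma-vascular cells of that depot (3), peritoneal macrophages (3), and pieces of tibialis muscle (2) and of liver (2). The stromal cells and the peritoneal macrophages had been plated for 24 h in DMEM-F12 with 10% NCS to keep adherent cells. ZIN40 embryonic stem (ES) cells were grown in GMEM with 10% FCS, with LIF (3, labelled non-differentiated) or without it (3, labelled differentiated). No genetic change is named for any group, and the sources used here do not give the strain, age or sex of the mice. No label states that replicates were separate cultures or animals. The p-values therefore reflect only how far these samples scatter, which may be technical.

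A level below is the log2 of a spot's quantile-normalized intensity plus an offset, and a difference is between group means of such levels. The offset understates differences of dim spots. The sources used here do not say whether background was subtracted from the intensities. Levels of different genes are not comparable. "Called" means an adjusted p under 0.05 in limma's test, with Benjamini-Hochberg adjustment over all 5760 spots. Median intensity per array ran from 18870 to 132228 in 37 arrays and from 941 to 42938 in the 3 arrays of ES cells without LIF. In those 3 the 99th percentile lay 60 to 391 times above the median, against 3.87 to 17.5 times elsewhere, and they were left out of the comparisons. Cell type markers largely followed the labels. Mean levels of 7 muscle genes were 18.34 in tibialis and 17.45 in myotubes against 16.42 to 16.72 elsewhere, and those of 5 liver genes were 18.21 in liver against 16.35 to 16.78. Levels of 5 adipocyte genes were 17.38 and 17.31 in the adipocyte groups, against 16.70 to 16.94. Levels of 5 macrophage genes were 17.56 in peritoneal macrophages, 17.11 in Raw 264 and 16.74 in J774, against 16.33 to 16.60. No defining ES cell gene was measured.

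Across the 13 groups with comparable arrays, 6 of the 56 genes differed: Mapk1ip1, Ppp1r18, Dusp26, Map3k3, Csnk1a1 and Dusp9. That is 10.7% of the genes, next to 10.9% of all spots and 11.2% of all named genes called by the same limma F-test, so as a set they were called about as often as the rest of the array. The median range between the highest and the lowest group was 0.40 for these genes and 0.41 for all spots. By role, the called genes were 2 of 25 kinases, 2 of 14 phosphatases, 1 of 11 phosphatase subunits, 1 of 3 binding proteins and 0 of 3 kinase subunits, of which 0 also had an unadjusted limma p under 0.05. The median range was 0.38 for kinases, 0.26 for kinase subunits, 0.45 for phosphatases and 0.49 for phosphatase subunits. Only 25 of the 56 spots were brighter than the median spot, and the offset compresses differences of dim spots most. In whole tissues and mixed isolates, fewer cells of a type and less RNA per cell cannot be told apart.

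**Figure D1:**
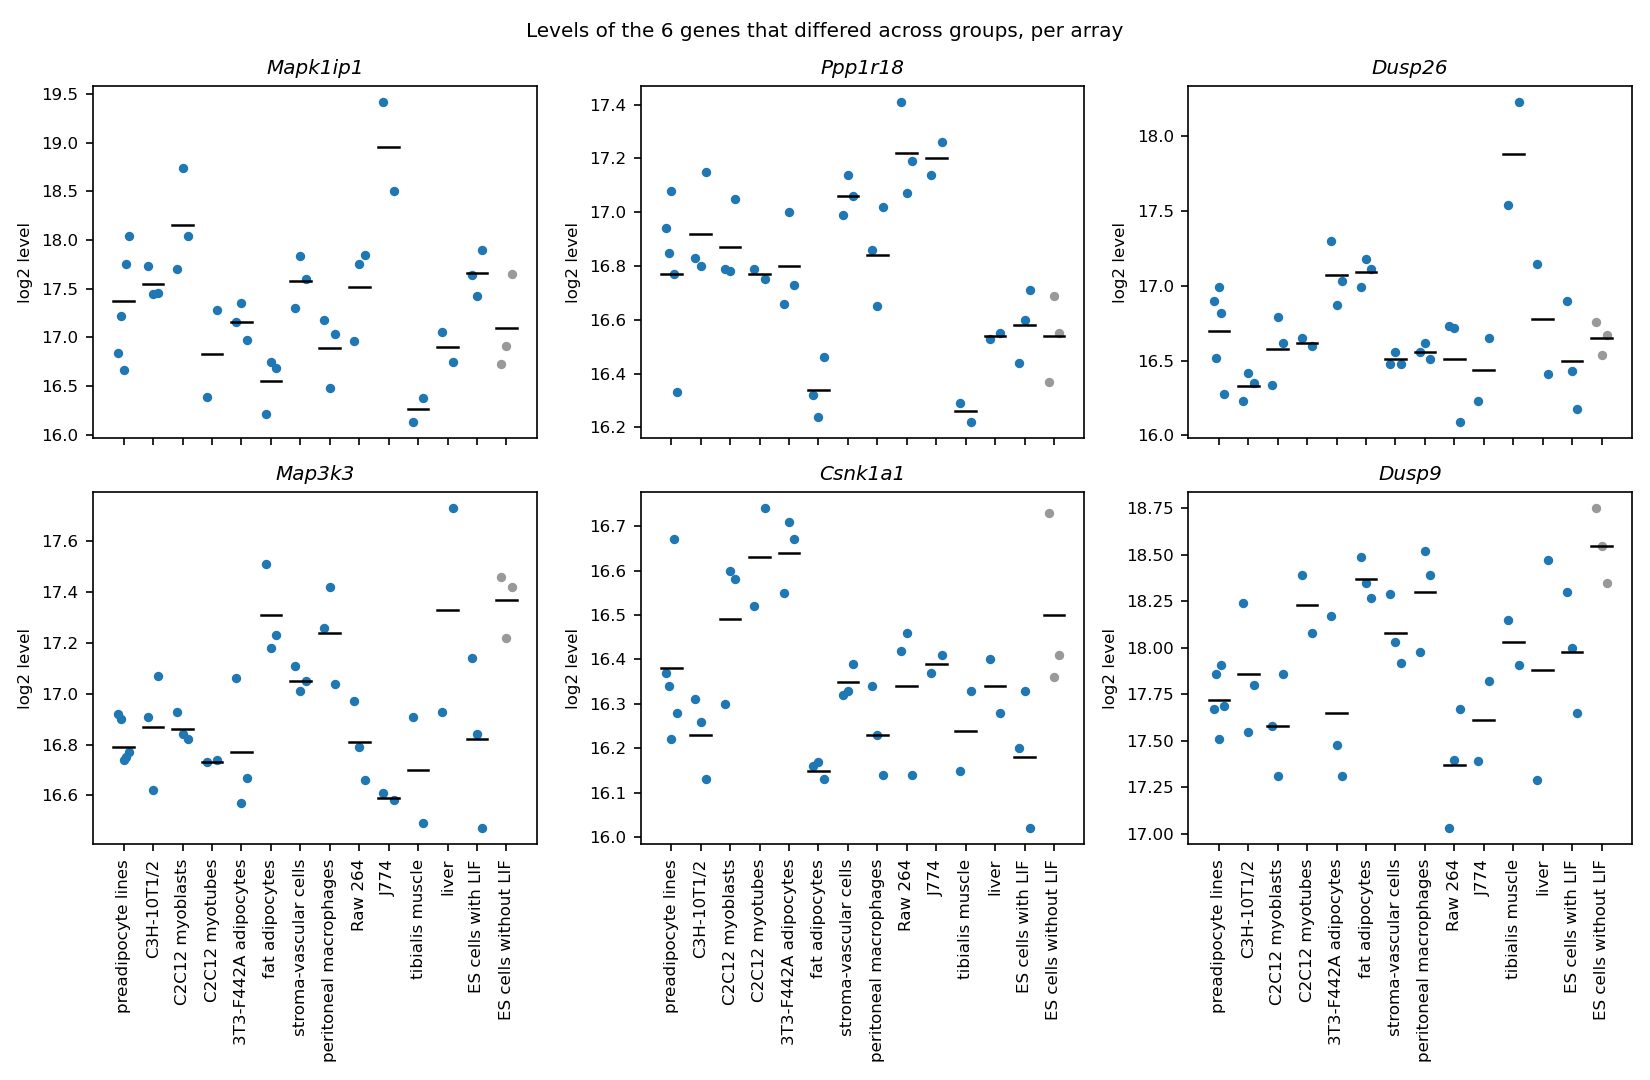
Log2 level (vertical axis, a separate scale in each panel) of the 6 genes that differed across groups. Each point is 1 array, each bar is a group mean (over 4 lines for the preadipocytes, after averaging both 3T3-L1 arrays), and grey points are ES cells without LIF, which did not enter the test. Mapk1ip1 reaches its highest points in J774, and Dusp26 in tibialis muscle, where both points lie above those of every other group.

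Mapk1ip1, named for binding MAP kinase 1, spanned the widest range of the 56 genes, from a mean of 16.26 in tibialis muscle to 18.96 in J774 (range 2.71, limma F-test adjusted p = 0.000105). Among macrophages, the levels were 19.42 and 18.51 in J774, 16.96, 17.75 and 17.85 in Raw 264, and 17.18, 16.48 and 17.03 in peritoneal macrophages. Both J774 samples thus stood above all other macrophage samples. C2C12 myoblasts had 17.70, 18.74 and 18.04, myotubes 16.39 and 17.28, and tibialis 16.13 and 16.38. Stroma-vascular cells had 17.30, 17.84 and 17.60, fat adipocytes 16.21, 16.75 and 16.69, and 3T3-F442A adipocytes 17.16, 17.35 and 16.97. Every myoblast sample lay above both myotube samples and every stroma-vascular sample above the fat adipocytes. The 3T3-F442A adipocytes overlapped with the preadipocyte lines, and their own line, at 16.66, lay below all 3 of them. The preadipocyte samples ran from 16.66 to 18.04 in Hgfu, with liver at 17.06 and 16.75, C3H-10T1/2 at 17.73, 17.45 and 17.46, and ES cells with LIF at 17.64, 17.43 and 17.90. The spots next to Mapk1ip1 in the deposited table ranged over 0.42 and 0.56, and the second of them was called too.

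Ppp1r18 encodes phostensin, an actin-binding protein that brings protein phosphatase 1 to the cytoskeleton. It was highest in both macrophage lines, with 17.41, 17.07 and 17.19 in Raw 264 and 17.14 and 17.26 in J774. Stroma-vascular cells followed at 16.99, 17.14 and 17.06, and peritoneal macrophages had 16.86, 16.65 and 17.02. The lowest samples were tibialis at 16.29 and 16.22 and fat adipocytes at 16.32, 16.24 and 16.46. Liver (16.53 and 16.55) and ES cells with LIF (16.44, 16.60 and 16.71) came next, and the cultured mesenchymal, muscle and fat cells lay between, from 16.66 to 17.15 except for Hgfu at 16.33. The range was 0.97 (limma F-test adjusted p = 0.000175). The adjacent spots, Cfap20 and an unnamed spot, were highest in J774 and correlated with Ppp1r18 at 0.7 and 0.56 over 13 groups. Neither was called, and their part was not tested. Means of Raw 264 (17.22) and J774 (17.20) were closer to each other than the samples of either line. Isolated adipocytes and the whole organs thus sat below every sample of Raw 264, J774, stroma-vascular cells and peritoneal macrophages. In 37 fits that each left out 1 sample, Mapk1ip1, Ppp1r18 and Dusp26 were called in all 37.

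Dusp26, a dual-specificity phosphatase reported to act on MAP kinases, was highest in tibialis muscle, with 17.54 and 18.23. Fat adipocytes had 16.99, 17.18 and 17.11 and 3T3-F442A adipocytes 17.30, 16.87 and 17.03, so the isolated and the cultured adipocytes overlapped. All other groups had means from 16.33 in C3H-10T1/2 to 16.78 in liver, whose 2 samples were 17.15 and 16.41. Both groups of cultured C2C12 cells were low, with 16.34, 16.79 and 16.62 in myoblasts and 16.65 and 16.60 in myotubes. The range was 1.55 (limma F-test adjusted p = 0.000462), and tibialis lay 0.79 above the second group.

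Spots near Dusp26 moved in a similar way. Its neighbour in the deposited table is an unnamed spot brighter than 99.8% of all spots, and on that spot's other side lies Exd2. Group means of Exd2 and Dusp26 correlated at 0.90 over 13 groups. Exd2 had 17.66 in tibialis, 17.43 in fat adipocytes and 16.30 in myotubes, and the bright spot had 20.08, 19.91 and 18.73. From myotubes to tibialis the differences were 1.36 for Exd2, 1.35 for the bright spot and 1.26 for Dusp26. The bright spot and Dusp26 correlated at 0.59. The spot on the other side of Dusp26, also bright, had a difference of -0.05 and a correlation of 0.25. Whether signal from a bright spot reached its neighbours was not tested, and the sources used here do not give the layout of spots on the filter. Over the whole table, the median correlation of adjacent spots over 13 groups was 0.42, and 0.10 for spots 100 rows apart. Such correlations describe spots that share arrays and normalization.

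**Figure D2:**
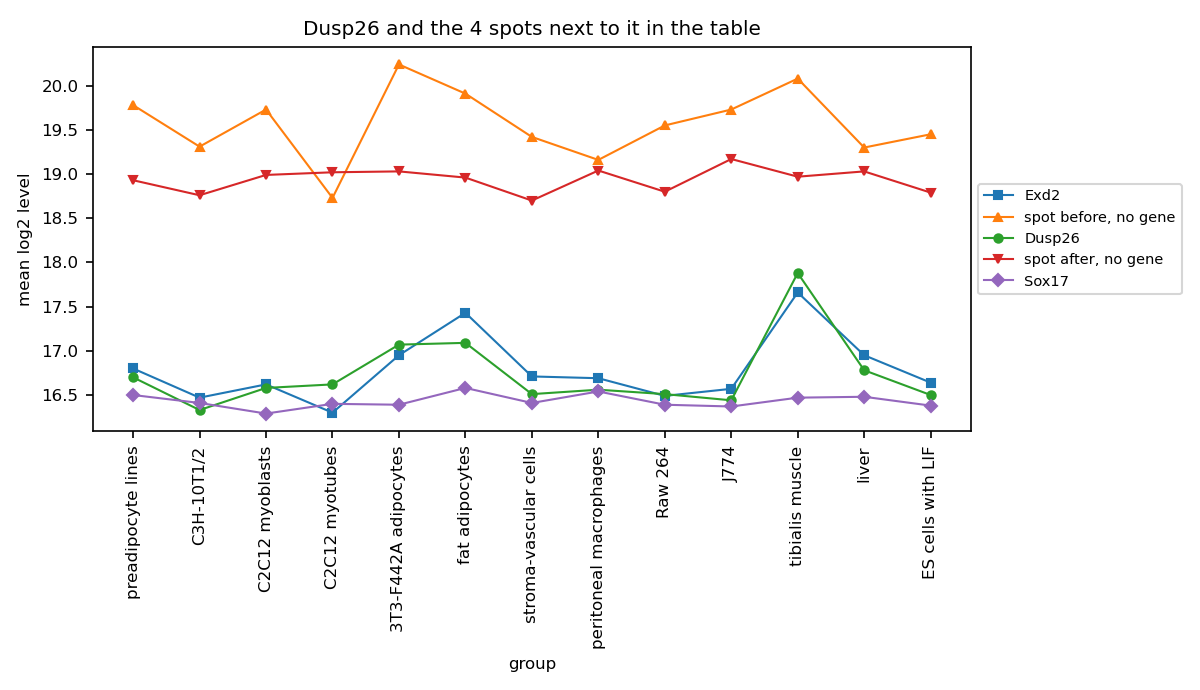
Mean log2 level (vertical axis) in 13 groups (horizontal axis) of Dusp26 and the 4 spots nearest to it in the deposited table. Dusp26 and Exd2, which lie on either side of a bright unnamed spot, both peak in tibialis muscle (17.88 and 17.66), while Sox17 does not (16.47).

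Map3k3 encodes MEKK3, a kinase near the top of MAP kinase chains. Levels were 16.93 and 17.73 in liver, 17.51, 17.18 and 17.23 in fat adipocytes and 17.26, 17.42 and 17.04 in peritoneal macrophages. Stroma-vascular cells had 17.11, 17.01 and 17.05. J774 was lowest at 16.61 and 16.58, Raw 264 had 16.97, 16.79 and 16.66, and every preadipocyte sample lay between 16.74 and 16.92. Means of these 4 groups, 17.05 to 17.33, lay above that of every cultured line (at most 16.87), and tibialis, at 16.91 and 16.49, lay among the lines. The range was 0.73 (limma F-test adjusted p = 0.0247). The call ended without peritoneal macrophage replicate 2 (adjusted p = 0.0502) and without fat adipocyte replicate 1 (0.0652), and was kept in 35 of 37 such fits. Map3k3 is next in the table to Sult4a1, a spot brighter than 99.3% of spots, and their group means correlated at 0.75. The part of that spot in the result was not tested.

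Csnk1a1, casein kinase 1 alpha, a kinase that marks beta-catenin for destruction, was highest in cells differentiated in culture. 3T3-F442A adipocytes had 16.55, 16.71 and 16.67 and myotubes 16.52 and 16.74. Fat adipocytes were lowest, at 16.16, 16.17 and 16.13. Myoblasts (16.30, 16.60 and 16.58) overlapped with myotubes, and the other groups had means between 16.18 and 16.39. The range was only 0.49 (limma F-test adjusted p = 0.0403). The spot is dim, brighter than 35.4% of spots. The call was kept in 19 of 37 fits without 1 sample, with adjusted p from 0.0184 to 0.10.

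Dusp9, which removes phosphate from ERK and p38 MAP kinases, had its highest mean in fat adipocytes, with 18.49, 18.35 and 18.27. Peritoneal macrophages followed at 17.98, 18.52 and 18.39, then myotubes at 18.39 and 18.08. Raw 264 was lowest at 17.03, 17.40 and 17.67, and J774 had 17.39 and 17.82. Neighbours in this order overlapped, and the liver samples, 17.29 and 18.47, spanned most of it. The range was 1.00 (limma F-test adjusted p = 0.0479), and the call was kept in 14 of 37 fits without 1 sample (adjusted p from 0.00569 to 0.0966). The adjacent spot, Spout1, correlated with Dusp9 at 0.84 over 13 groups, and spots brighter than 97.4% and 99.2% of all spots lie 2 rows away on either side. Their part in the result was not tested.

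Of the 56 spots, 8 lie beside a spot in the brightest 5% of the array, among them the called Dusp26 and Map3k3, and none is in that 5% itself. Over all named spots outside that 5%, 14.7% of 293 spots beside such a spot were called by the F-test, and 10.7% of 3082 others. The median level was 16.62 in the first set and 16.40 in the second.

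**Figure D3:**
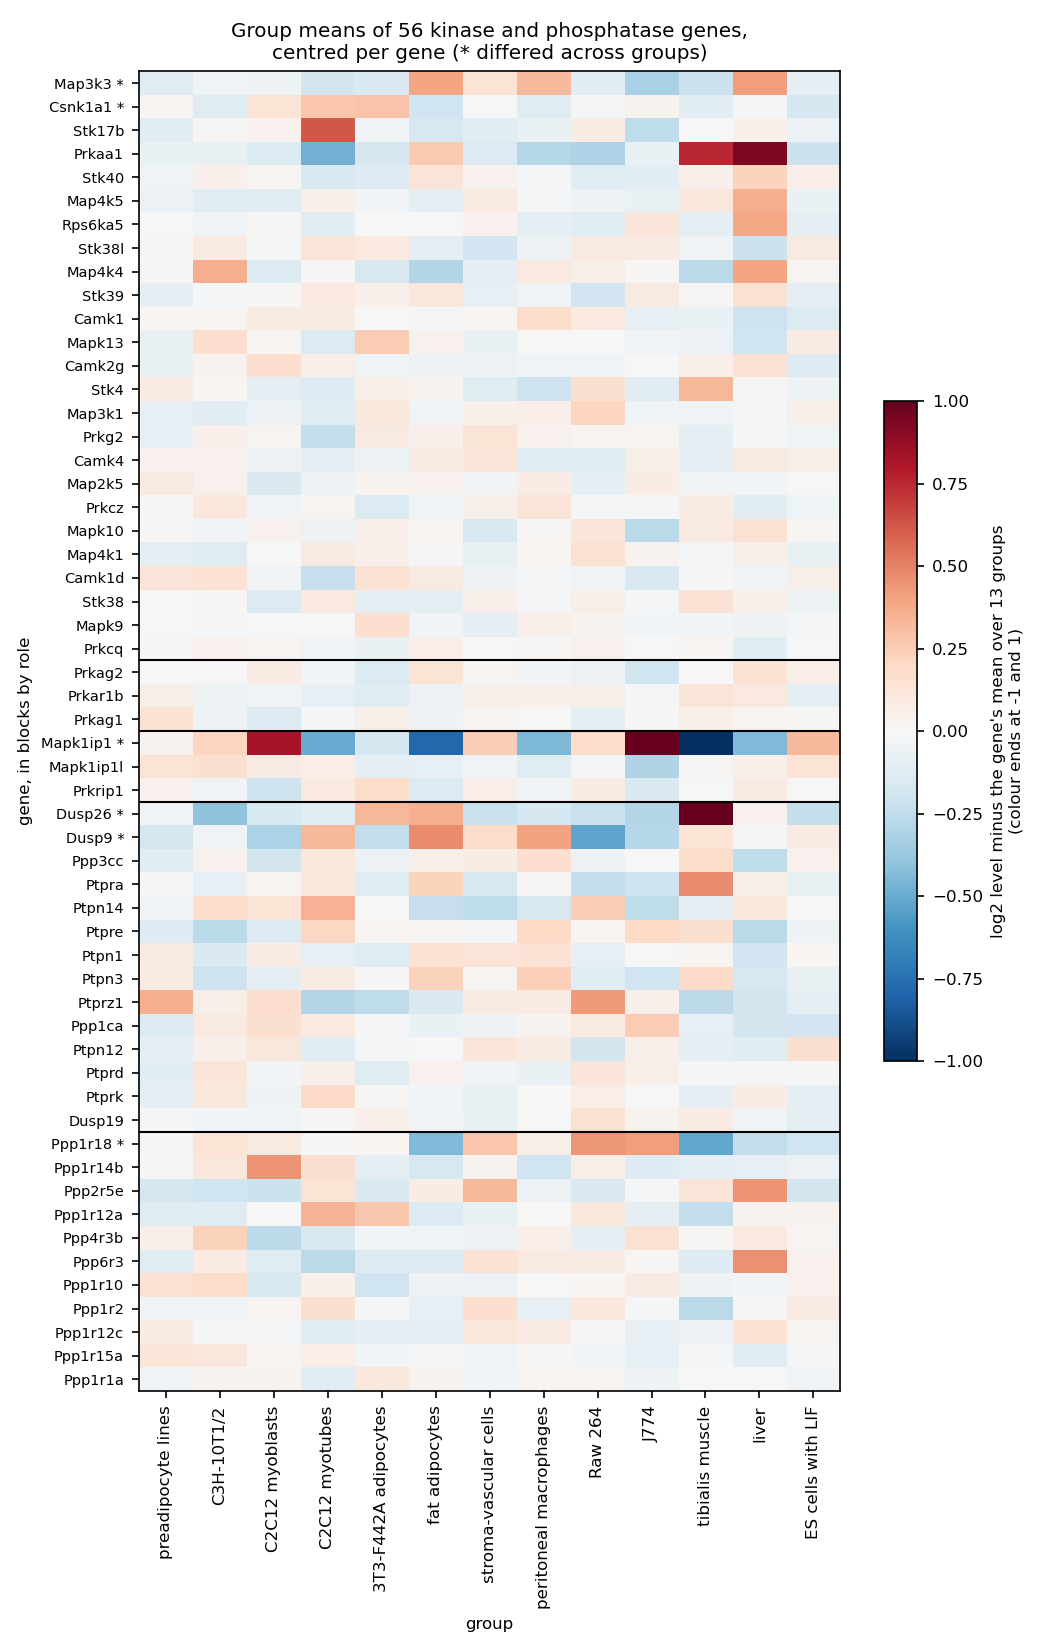
Mean log2 level of each of the 56 genes (rows, in blocks by role from kinases at the top to phosphatase subunits at the bottom) in 13 groups (columns), centred on the gene's own mean; red is above it and blue below, and the colour ends at -1 and 1. Asterisks mark the 6 called genes; most other rows stay pale, and liver, with 2 samples that lie far apart, holds the highest mean of 12 genes and the lowest of 8.

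Other kinases had wide ranges without a call. Prkaa1, the catalytic alpha 1 subunit of the energy sensor AMPK, had levels of 19.25 and 16.73 in liver and 17.57 and 18.04 in tibialis, against 16.58 in myotubes on average (range 1.41, limma F-test adjusted p = 0.128). The liver samples differed by more than any pair of groups did, and the adjusted p was 0.0227 without liver replicate 1 and 4.13e-06 without replicate 2. Stk17b, a kinase of the death-associated family, had 17.50 and 16.51 in myotubes and 16.13 on average in J774 (range 0.88, adjusted p = 0.108). Its difference from myoblasts was 0.57 over both myotube samples and 1.06 without replicate 2, the lower one. The adjacent spots, Tor3a and Ift52, also peaked in myotubes and correlated with Stk17b at 0.85 and 0.80 over 13 groups. Their part was not tested. Camk1, a calcium-calmodulin kinase and the one of 4 Camk genes with the smallest p, ranged over 0.39 (adjusted p = 0.357). The 4 Camk genes ranged over 0.24 to 0.39, and the 11 genes of the MAP kinase cascade, Mapk1ip1 included, over 0.23 to 2.71. Prkcq, a protein kinase C of T cells and muscle, had the smallest range of all, 0.17. The regulatory subunits of AMPK (Prkag1 and Prkag2) and of protein kinase A (Prkar1b) ranged over 0.25 to 0.33, and none was called by the F-test (adjusted p from 0.575 to 0.701).

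Among phosphatases, Ptpra, a receptor phosphatase that activates Src, had 17.01 and 17.03 in tibialis, above every sample of the other 12 groups. Its range was 0.71 (limma F-test adjusted p = 0.132, and 0.0281 without Hgfu), and a bright unnamed neighbour correlated with it at 0.79. On the other side Fbxl17 and Mtmr7, both called, also peaked in tibialis and correlated with Ptpra at 0.92 and 0.77. The part of nearby spots was not tested. Ppp3cc, a catalytic subunit of the calcium-dependent phosphatase calcineurin, had 16.65 and 16.59 in tibialis and 16.26 and 16.12 in liver (adjusted p = 0.0833, and 0.0413 without myoblast replicate 3). The unnamed spots just before it in the table, both called, also peaked in tibialis and correlated with it at 0.80 and 0.94. Ptpn14, a cytosolic tyrosine phosphatase, had 17.13 and 16.60 in myotubes and ranged over 0.60 (adjusted p = 0.143). An adjacent unnamed spot, also highest in myotubes, correlated with it at 0.93. For both genes the part of nearby spots was not tested. Receptor tyrosine phosphatases ranged over 0.24 to 0.71 and cytosolic ones over 0.34 to 0.60.

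Among phosphatase subunits, Ppp1r14b, an inhibitor of protein phosphatase 1, was highest in myoblasts, with 16.70, 16.84 and 16.84. Myotubes had 16.56 and 16.46, and peritoneal macrophages 16.32, 16.04 and 16.10 (range 0.64, limma F-test adjusted p = 0.0736). It was called without Ob1774 (0.0473), without ES cells with LIF replicate 2 (0.0404) and without stroma-vascular replicate 1 (0.0487). The adjacent spot, Loxl1, was called, also peaked in myoblasts and correlated with Ppp1r14b at 0.80. Ppp2r5e, a targeting subunit of protein phosphatase 2A, had 17.27 and 16.44 in liver and 16.69, 16.92 and 16.60 in stroma-vascular cells (adjusted p = 0.0923). It was called without liver replicate 2 (0.00916) and without myotube replicate 2 (0.0355). Ppp1r12a, which directs phosphatase 1 to myosin, had 16.78 and 16.86 in myotubes and 16.31 and 16.16 in tibialis (adjusted p = 0.0942, and 0.0155 without C3H-10T1/2 replicate 2). Its second spot did not follow the first, with a correlation of 0.01 over 13 groups, and both Prkrip1 spots correlated at -0.08. Lrp4 and Nxph3, just before the Ppp1r12a spot used, also peaked in myotubes and each correlated with it at 0.76. The part of spots near Ppp1r14b and Ppp1r12a was not tested. Ppp4r3b, a subunit of phosphatase 4, was highest in C3H-10T1/2, with 16.53, 16.63 and 16.82 (adjusted p = 0.113).

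Differentiation of fat cells in culture moved no gene of the set past the threshold. Between 3T3-F442A adipocytes and preadipocyte lines 0 of 56 were called in limma, with 0.156% of all spots called. Of the genes, 5 (8.93%) had an unadjusted p under 0.05, next to 9.95% of all spots, and the median difference was -0.01 in both. Ppp1r12a had 0.39 ± 0.12 (SE, adjusted p = 0.208), from 16.36 in the lines to 17.03, 16.56 and 16.67 in adipocytes. Mapk13, the p38-delta MAP kinase, had 0.32 ± 0.12 (adjusted p = 0.316), and its adipocyte samples, 16.65, 16.72 and 16.63, lay above every line. In all, 4 of the 56 genes had no overlap between the groups. Overlap was not counted over all spots, so it sets no gene apart. Csnk1a1 had 0.26 ± 0.11, and Ppp1r10, which holds phosphatase 1 in the nucleus, -0.34 ± 0.13. Rosiglitazone, confluence, differentiation and cell line cannot be told apart here, since most of the preadipocyte lines are not the line of the adipocytes.

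Differentiation of muscle cells likewise gave 0 called genes in limma, with 0.226% of all spots called. Serum (4% HS against 10% FCS), confluence and differentiation cannot be told apart in this comparison. An unadjusted p under 0.05 was found for 6 genes (10.7%) and 9.97% of spots. From myoblasts to myotubes Mapk1ip1 differed by -1.33 ± 0.35 (adjusted p = 0.145), Stk17b by 0.57 ± 0.18 (0.222), Dusp9 by 0.65 ± 0.27 (0.371) and Ppp3cc by 0.29 ± 0.11 (0.342). The samples of Mapk1ip1, Dusp9 and Ppp3cc did not overlap between the groups, and those of Stk17b did. In all, 8 of the 56 genes had no overlap. This was not counted over all spots, so it sets none of them apart. Without myotube replicate 2 the calls rose from 13 to 153 of 5760 spots, and 3 genes were among them, 2 higher and 1 lower; Mapk1ip1 had -1.77 (adjusted p = 0.0176). The difference between both differentiation effects was tested directly, and 0 genes were called in limma (0.260% of all spots), with an unadjusted p under 0.05 for 6 genes (10.7%) and 10.2% of spots. The smallest p was that of Ppp1r10, with -0.34 in fat cells and 0.21 in muscle cells (difference -0.55 ± 0.21, adjusted p = 0.370). Mapk13 had 0.32 and -0.16, Mapk1ip1 -0.21 and -1.33, and Prkg2, a kinase switched on by cyclic GMP, 0.17 and -0.27. The values in fat cells are against the mean of all preadipocyte lines. For Mapk1ip1 the single sample of the adipocytes' own line lay below every adipocyte sample, the other direction. What cannot be told apart in either comparison cannot be in their difference. Without myotube replicate 2, 1 gene was called, lower in fat cells, among 129 spots in place of 15.

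In inguinal fat, Ppp1r18 was higher in stroma-vascular cells than in adipocytes, at 17.06 against 16.34 (0.72 ± 0.14, 3 samples each, limma adjusted p = 0.00492). It was the single gene called of 56, with 0.625% of all spots called (0.451% higher and 0.174% lower). An unadjusted p under 0.05 was found for 4 genes (7.14%) and 9.01% of spots. Mapk1ip1 had 1.03 ± 0.31 (adjusted p = 0.156), Dusp26 -0.59 ± 0.20 (0.256) and Ptpra -0.37 ± 0.16 (0.452), all without overlap between the groups. The same held for 10 of the 56 genes in all. Overlap was not counted over all spots, so it sets none of them apart. No label pairs these samples. Same-numbered samples were taken as pairs because their deviations in these same data correlated at 0.26, 0.10 and 0.39. Peritoneal macrophages and J774, not taken as pairs, had 0.15 and 0.14, and tibialis and myotubes, also not taken as pairs, 0.1 and 0.1. With the assumed pairs as a block limma called 3 genes, and 231 spots in all. They were Ppp1r18 (adjusted p = 0.00314), Mapk1ip1 (0.000513) and, lower, Dusp26 (0.00543). In the main fit Ppp1r18 alone was called, higher in the stromal cells. The pairs were chosen from these same data, so the block fit is no separate evidence for Mapk1ip1 and Dusp26. Without a block, a fit of the compared groups alone also called 3 genes, 2 higher and 1 lower, among 112 spots. Near Dusp26, Exd2 was also lower in stroma-vascular cells, with 16.71 there and 17.43 in fat adipocytes. The bright unnamed spot had 19.42 and 19.91. The part of these spots was not tested. The Ppp1r18 call ended without fat adipocyte replicate 2 (adjusted p = 0.0692) and without stroma-vascular replicate 2 (0.0505). Without stroma-vascular replicate 1, 2 genes and 27 spots were called. Markers of other cells moved as well: the single matrix gene differed by 0.67 and the single endothelial gene by 0.44, both higher in stroma-vascular cells at an unadjusted p under 0.05 and not called. Mean levels of 5 macrophage genes were 16.60 (16.56 to 16.62 over samples) in stroma-vascular cells and 16.54 (16.51 to 16.58) in adipocytes, and 2 of 5 adipocyte genes were called lower. The part of these cells in the result was not tested. Plating is named for the stromal cells alone, and its part cannot be told apart from that of the cell type.

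Against 3T3-F442A adipocytes, fat adipocytes were lower in Csnk1a1, by -0.49 ± 0.12 (16.15 against 16.64, 3 samples each, limma adjusted p = 0.0201). No other gene of the set was called, with 2.47% of all spots called (1.25% higher and 1.22% lower). An unadjusted p under 0.05 was found for 10 genes (17.9%) and 18.7% of spots. Map3k3 had 0.54 ± 0.16 (adjusted p = 0.0659), Ppp1r18 -0.46 ± 0.14 (0.0685) and Ppp1r12a -0.40 ± 0.13 (0.0853), with no overlap. In all, 13 of the 56 genes had no overlap. This was not counted over all spots, so it sets none of them apart. The Csnk1a1 call was kept without 3T3-F442A adipocyte replicate 1 and ended without each of the other 5 samples (adjusted p from 0.052 to 0.122). It also ended with a local trend removed along the table (-0.32, adjusted p = 0.0927), and its 4 nearest spots had differences of -0.34 to -0.17. Without 3T3-F442A replicate 1, 4 genes were called, 2 in each direction, among 275 spots in place of 142. Timp2, the single matrix marker measured, had -1.87 ± 0.32 here and Cd79b, a B cell gene, 0.79 ± 0.21, and their part was not tested. This comparison and the one above share the fat adipocytes.

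**Figure D4:**
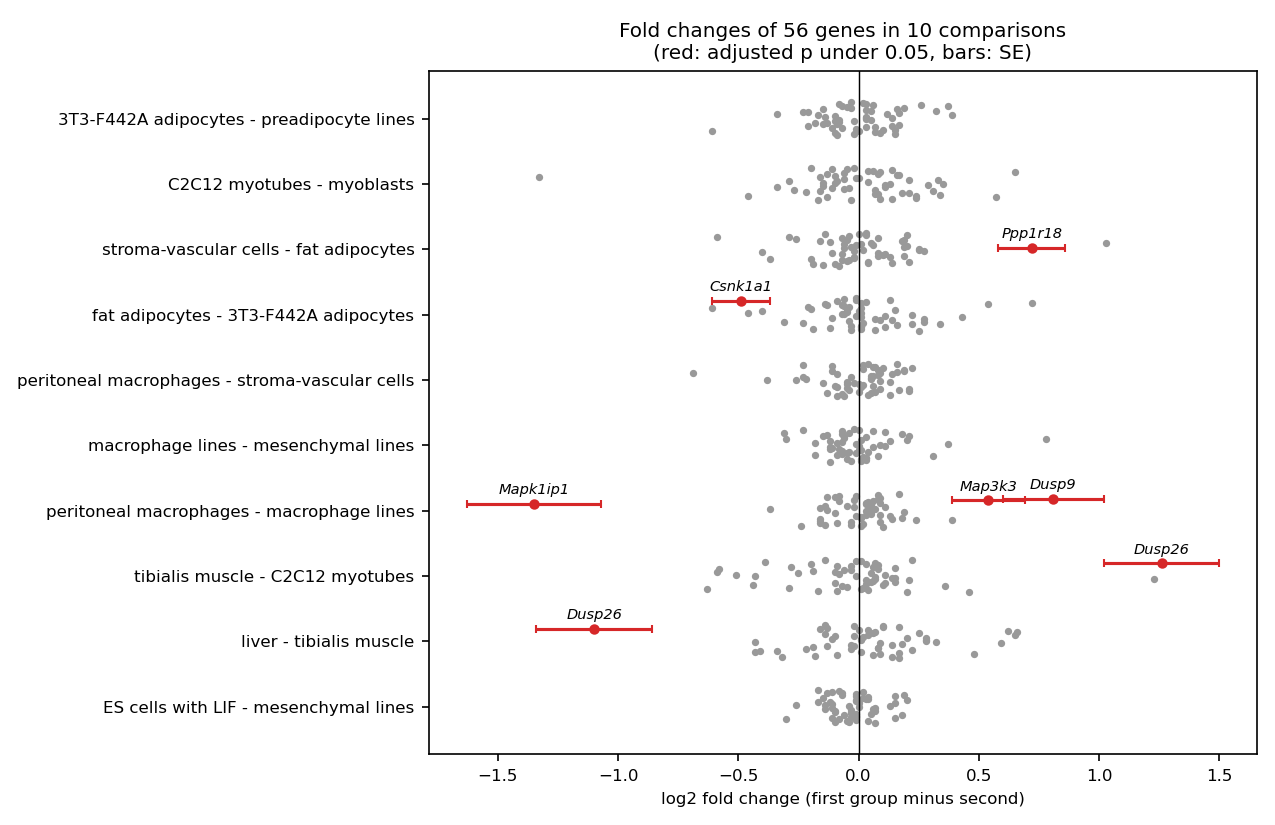
Log2 difference (horizontal axis, first group minus second) of each of the 56 genes in 10 comparisons (rows). Red points are called (limma adjusted p under 0.05) with bars of 1 SE, and grey points are not called. In all, 7 points are red. Most grey points lie within 0.5 of 0.

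Among macrophages, 3 genes separated peritoneal cells from the mean of Raw 264 and J774, with 2.90% of all spots called (1.63% higher and 1.27% lower). Mapk1ip1 was lower in peritoneal macrophages by -1.35 ± 0.28 (16.89 against 18.24, limma adjusted p = 0.00388), although Raw 264 replicate 1, at 16.96, overlapped with them. Dusp9 was higher by 0.81 ± 0.21 (18.30 against 17.49, adjusted p = 0.0286) and Map3k3 by 0.54 ± 0.15 (17.24 against 16.70, adjusted p = 0.0368), both without overlap. In all, 4 of the 56 genes had no overlap. This was not counted over all spots, so it sets none of them apart. Markers moved too: 3 of 5 macrophage genes were called higher in the primary cells. At an unadjusted p under 0.05 and without a call, the single lymphocyte gene differed by 0.65, the single erythroid gene by 0.52 and 2 of 5 adipocyte genes differed. Their part in the result was not tested. Ppp1r18 had -0.37 ± 0.13 (adjusted p = 0.122). An unadjusted p under 0.05 was found for 6 genes (10.7%) and 14.5% of spots. Without peritoneal macrophage replicate 2 or J774 replicate 1 no gene was called, with 69 and 53 spots called in place of 167, and Mapk1ip1 was at -1.14 (adjusted p = 0.0798) and -1.12 (0.0668). Without peritoneal macrophage replicate 3, 1 gene (66 spots) was called, lower, and without peritoneal macrophage replicate 1, any 1 Raw 264 sample or J774 replicate 2 the count was 2. Dusp9 was not called in 4 of the 8 such fits: without peritoneal macrophage replicate 2 (adjusted p = 0.222) or 3 (0.144), Raw 264 replicate 1 (0.0652) or J774 replicate 1 (0.215). Map3k3 was called only without Raw 264 replicate 1 (adjusted p in the others 0.0513 to 0.279).

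The other macrophage comparisons gave no call. Against stroma-vascular cells, plated for the same 24 h in the same medium, peritoneal macrophages differed in 0 genes in limma (0.451% of all spots), with an unadjusted p under 0.05 for 2 genes (3.57%) and 5.38% of spots. Mapk1ip1 had -0.69 ± 0.31 (adjusted p = 0.839) and Ppp2r5e -0.38 ± 0.17 (0.856). Camk4, a calcium-calmodulin kinase of the nucleus, had -0.23 ± 0.12, and Ppp1r2, an inhibitor of phosphatase 1, -0.26 ± 0.14. Without stroma-vascular replicate 1, 1 gene was called, lower, among 22 spots. In the same comparison 4 of 5 macrophage marker genes were called higher, Cybb by 1.91 ± 0.28. Between the macrophage lines and the mesenchymal lines (preadipocyte lines and C3H-10T1/2) limma called 0 genes (1.08% of all spots), with an unadjusted p under 0.05 for 5 genes (8.93%) and 13.4% of spots. Ppp1r18 had 0.37 ± 0.10 (adjusted p = 0.0764) and Mapk1ip1 0.78 ± 0.23 (0.0892). Mapk1ip1l, named after Mapk1ip1, had -0.30 ± 0.09 (0.101), and Ptpre, a tyrosine phosphatase with receptor and cytosolic forms, 0.31 ± 0.11 (0.152). The samples of all 4 overlapped between the groups. Ppp1r18 was called without the 3T3-F442A preadipocyte sample (0.0346) or C3H-10T1/2 replicate 3 (0.0494), and Mapk1ip1 without Hgfu (0.0305) or Raw 264 replicate 1 (0.0297).

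Tibialis muscle exceeded C2C12 myotubes in Dusp26, by 1.26 ± 0.24 (17.88 against 16.62, 2 samples each, limma adjusted p = 0.00402), the single gene called, with 0.920% of all spots called (0.712% higher and 0.208% lower). Exd2, on the other side of the bright spot, was called too. An unadjusted p under 0.05 was found for 9 genes (16.1%) and 8.89% of spots. Prkaa1 had 1.23 ± 0.39 (adjusted p = 0.170), Ppp1r12a -0.59 ± 0.16 (0.0700) and Stk17b -0.63 ± 0.19 (0.131), all without overlap. With 2 samples each, 24 of the 56 genes had no overlap, so it sets none of them apart. Overlap was not counted over all spots. The Dusp26 call ended without tibialis replicate 2 (0.92, adjusted p = 0.263) and without myotube replicate 1 (1.28, adjusted p = 0.0646). Without myotube replicate 2, 3 genes were called, 1 higher and 2 lower, among 163 spots in place of 53. Fitted on these groups alone no gene was called, with Dusp26 at an adjusted p of 0.152. Median intensity was 94790 and 130888 in tibialis and 28300 and 62749 in myotubes, and its part was not tested. With no scaling between arrays, which moved the median spot by 1.08, Dusp26 had 2.24 (adjusted p = 0.0671), Ppp1r12a 0.43 and Stk17b 0.71, so both of the latter turned.

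Dusp26 was also the single gene called between the whole organs, lower in liver than in the same tibialis samples by -1.10 ± 0.24 (16.78 against 17.88, 2 samples each, limma adjusted p = 0.00824), with 1.88% of all spots called (1.25% higher and 0.625% lower). Near Dusp26, the bright unnamed spot differed by -0.79 and Exd2 by -0.71, neither called, and their part was not tested. An unadjusted p under 0.05 was found for 8 genes (14.3%) and 15.1% of spots. Ppp3cc had -0.43 ± 0.12 (adjusted p = 0.0649) and Map3k3 0.62 ± 0.20 (0.104). Rps6ka5 (MSK1, a kinase of histones and CREB) had 0.48 ± 0.15 (0.0813). The liver samples, which correlated at 0.817 over all spots, the lowest of any replicate pair beside 0.818 in Raw 264, lay apart in Dusp26 (17.15 and 16.41), Map3k3 (16.93 and 17.73) and Rps6ka5 (16.50 and 16.84). Without liver replicate 1, 4 genes and 96 spots were called, 2 of the genes in each direction, with Map3k3 at 1.02 (adjusted p = 0.0074). Without liver replicate 2, 2 genes, both higher, and 199 spots were called, and Dusp26 had -0.73 (0.155). Without tibialis replicate 2 no gene was called and Dusp26 had -0.76 (0.314). Fitted on both organs alone, limma called 0 genes, with Dusp26 at 0.417. With no scaling between arrays the median spot moved by -1.53, and 53 of the 56 genes and 5632 spots were called lower in liver. There Rps6ka5 had -1.14 and Map3k3 -1.28, against 0.48 and 0.62 with scaling. Hbb-b1, a haemoglobin gene, had 1.16 ± 0.32 (adjusted p = 0.0526), and its part was not tested.

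ES cells with LIF differed from the mesenchymal lines in 0 genes in limma, with 0.226% of all spots called, and in 1 gene (1.79%) and 4.81% of spots at an unadjusted p under 0.05. That gene was Ppp1r18, with -0.26 ± 0.12 (adjusted p = 0.993). Camk1 had -0.17 ± 0.09, Ptpn12, a tyrosine phosphatase of focal adhesions, 0.18 ± 0.12, and Ppp1r12a 0.15 ± 0.11, all with overlap. With no scaling between arrays, which moved the median spot by 0.69, Ppp1r18 had 0.50 and Camk1 0.60. The median difference of the 56 genes was within 0.05 of that of all spots in each of the 11 comparisons.

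Of related genes outside the symbol rule, 4 differed across groups: 2 of 8 tyrosine kinases (Src and Mertk), 1 of 15 other serine-threonine kinases (Alpk3), 1 of 11 anchors and adaptors (Lamtor3), 0 of 7 cell cycle kinases and phosphatases and 0 of 8 lipid and other phosphatases. That is 8.16% of 49 genes, below the 10.9% of all spots. An unadjusted limma p under 0.05 was found for 11 of them (22.4%), 1 and 3 of these in the last 2 lists, and for 26.8% of all spots. Src, a membrane-bound tyrosine kinase, was higher in fat adipocytes than in 3T3-F442A adipocytes by 0.75 ± 0.19 (limma adjusted p = 0.0253) and in peritoneal macrophages than in the macrophage lines by 0.78 ± 0.17 (0.00729). Mertk, a receptor kinase for engulfing dead cells, was lower in liver than in tibialis by -0.90 ± 0.18 (0.0025). Alpk3, a muscle kinase, was higher in tibialis than in myotubes by 1.49 ± 0.29 (0.00472) and lower in liver than in tibialis by -1.06 ± 0.29 (0.0493). Lamtor3, a scaffold for MAP kinases on lysosomes, was higher in stroma-vascular cells than in fat adipocytes by 0.50 ± 0.12 (0.0429), lower in fat than in 3T3-F442A adipocytes by -0.44 ± 0.12 (0.0466), and higher in peritoneal macrophages than in the lines by 0.44 ± 0.11 (0.0217). The first pair of Lamtor3 comparisons shares the fat adipocytes.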

How the data were processed

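RNA was labelled with 33P and hybridized to Resgen filters, and spots were quantified with Imagene, per the labels' protocols. The deposited values are linear spot intensities; the sources used here state neither their background correction nor their scaling. Of 5760 spots, 3420 have 1 gene symbol, 98 several and 2242 none; 3346 were matched to a current GRCm38.p6 symbol. Arrays were quantile normalized, and an offset of 36370 (the 10th percentile) was added before log2. Both 3T3-L1 samples were averaged. All 14 groups entered 1 fit in limma 3.58.1 (R 4.3.3, lmFit and eBayes, 25 residual degrees of freedom), two-sided. The code was also run on simulated data with independent errors, which leave out the correlation of adjacent spots. Fold changes of dim spots are understated on this scale. ES cells without LIF entered the fit but no comparison.

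The genes, lists, roles and tests were chosen with earlier results of these data known. Named are the 12 genes with the smallest F-test p, the smallest of each family, the called genes of each comparison and, where fewer than 4 were called, those with the smallest p up to 4; from the related and marker lists, called genes and defining markers. Prkcq, Prkag1, Prkag2, Prkar1b, Prkrip1 and the genes of nearby spots were named after their values were seen. Replicate numbers were taken to pair stroma-vascular cells and fat adipocytes alone, where deviations of same-numbered samples correlated at 0.26, 0.10 and 0.39. No label states this pairing. Alternatives were median scaling, no scaling, 4 times the offset, subtraction of the 5th percentile, removal of a running median over 101 spots, bright spots, other variance models, averaged spots, fewer groups, a replicate block and leaving out each sample. No arrays of a group held identical values. Figures were drawn with matplotlib 3.10.9.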

Additional observations from a re-analysis of the deposited data

Results flagged for a closer look

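Among the 4 preadipocyte lines, Ppp1r12a had levels of 16.14 in Hgfu and 16.43, 16.43 and 16.44 in the others. The gap from Hgfu to its nearest line was 0.94 of the whole range, past the limit for a single outlying value among 4. Of 25 named genes checked in these lines, 1 had such a line, and chance alone gives about 1 in 20.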

How the results depend on the processing

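Counts are of the 56 genes called, with all spots called in parentheses. Across groups the count of 6 (629) became 3 (158) with median scaling, 2 (289) without scaling and 3 (419) after subtraction of the 5th percentile, so calls fell over the whole array. It was 3 to 8 when 1 sample was left out. Median scaling gave 0 (63) in fat against 3T3-F442A adipocytes, 0 (20) in peritoneal macrophages against lines, 0 (4) in tibialis and 0 (18) in liver. Without scaling the counts were 0 (0), 0 (5), 0 (9) and 53, all lower (5632), and 0 (1) in stroma-vascular cells. Subtraction gave 0 (48) in peritoneal macrophages against lines, 0 (34) in tibialis and 0 (122) in liver. With a local trend removed, 4 (337) were called in fat against 3T3-F442A adipocytes, 2 (90) in macrophage against mesenchymal lines, 1 (215, lower, where the balance had been higher) in peritoneal macrophages against lines and 2 (159) in liver. Bright spots alone, 25 of the genes, gave 1 (188) in fat against 3T3-F442A adipocytes, Map3k3, higher; Csnk1a1, the gene called lower, is dim and was not among them. Fits of the compared groups alone gave 3 (112) in stroma-vascular cells, 0 (27) in tibialis and 0 (2) in liver. The replicate block gave 1 (15) in myotubes, 3 (231) in stroma-vascular cells, 3 (249; 2 higher, 1 lower) in fat against 3T3-F442A adipocytes, 4 (184) in tibialis and 0 (6) in liver. It changed neither the 0 (15) in peritoneal macrophages against stroma-vascular cells nor the 3 (110) against lines. Numbers in liver and tibialis correlated at -0.11, and a crossed replicate block, chosen after seeing the data, gave 0 (4). No count of the genes changed by over 1.5 times with 4 times the offset, without the ES cells without LIF, with another variance model or with averaged spots. Leaving out 1 sample gave 0 to 4 in fat against 3T3-F442A adipocytes and in liver, 0 to 3 in myotubes and in tibialis, 0 to 2 in stroma-vascular cells and in peritoneal macrophages against lines, 0 to 1 in the remaining macrophage comparisons and the difference of differentiation effects, and 0 in 3T3-F442A against preadipocytes and in ES cells. The balance turned without peritoneal macrophage replicate 3 (1 gene), myotube replicate 2 (3 genes in tibialis) and liver replicate 2 (2 genes). Without scaling the median spot moved by 0.28 in macrophages against stroma-vascular cells, 1.08 in tibialis, -1.53 in liver and 0.69 in ES cells. There, some values smaller than that shift and of opposite sign turned. They were Camk4 (0.11) in the first, and Ppp1r12a (0.43) and Stk17b (0.71) in tibialis. Rps6ka5 (-1.14) and Map3k3 (-1.28) turned in liver, and Ppp1r18 (0.50) and Camk1 (0.60) in ES cells. No other fold change turned among the 1527 alternative values of named genes. These also include adjusted p-values of the F-test, which have no sign and cannot turn. Ppp1r2 (-0.26 with scaling) in macrophages against stroma-vascular cells did not, although smaller than the shift. Nor did Ppp1r10 (-0.34, shift 0.40) in 3T3-F442A adipocytes against preadipocyte lines. The cause of these and the remaining changes was not tested. Groups of 2 or 3 samples limit what these filters resolve.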
